A study of Mus musculus with 20 samples.

Results

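The calcium/calmodulin-dependent kinases of the mouse hippocampus were followed through 9 genes. Of these, 4 encode the subunits of CaMKII (Camk2a, Camk2b, Camk2g and Camk2d), and the others are the CaMKII inhibitor Camk2n1, the kinases Camk4 and Camk1, and the kinase kinases Camkk1 and Camkk2. The genes were chosen by name as a family, around the difference that Camk2d showed between enriched and standard housing at 24 months. Because the set was selected on that contrast, all values of 24mEE against 24mSC are given as a description with no test. The deposited table holds 47729 genes, of which 16692 passed the filter on low counts, and 9 of the 9 members passed it.

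RNA came from the hippocampus of male C57BL/6 mice, with 5 libraries in each of 4 groups. At 24 months of age the animals were kept in an enriched environment (24mEE) or in standard cages (24mSC), and the same housing pair existed at 5 months of age (5mEE and 5mSC). According to the paper, enriched cages were larger and held running wheels, platforms, tunnels and houses, and the old enriched mice had moved there only late in life. Exercise and the other parts of enrichment cannot be told apart, and young enriched mice are not described in the paper. No mouse carried a named mutation or transgene. The p-values below set differences between groups against the spread between these libraries, with no term for the sequencing run.

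Calcium that enters a neuron binds calmodulin, and calcium/calmodulin switches on several families of protein kinases. CaMKII is built as a ring of many subunits, which the 4 Camk2 genes supply, and once active its subunits phosphorylate their neighbours at a threonine beside the calmodulin-binding stretch, so that activity can outlast the calcium signal. In forebrain neurons the alpha and beta subunits are the main forms and are needed for long-term potentiation and spatial learning, whereas the delta subunit is best known from heart muscle. The other kinases form a cascade in which CaMKK phosphorylates CaMKI in the cytoplasm and CaMKIV in the nucleus, where CaMKIV acts on the transcription factor CREB.

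The coding sequence around that threonine is shown for 3 of the paralogs because it is a strongly related stretch, and it shows how far reads of Camk2d can be told from those of its relatives. Each run has 39 bases of the sense strand, 5′ to 3′, with the threonine codon in capitals, read from GRCm38 transcripts of GENCODE. The Camk2d run lies in exon 11 at chr3:126797723-126797761 on the plus strand, the Camk2b run in exon 11 at chr11:5988979-5989017 on the minus strand, and the Camk2g run in exon 11 at chr14:20760421-20760459 on the minus strand.
Camk2d: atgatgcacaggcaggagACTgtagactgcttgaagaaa
Camk2b: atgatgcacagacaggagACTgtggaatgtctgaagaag
Camk2g: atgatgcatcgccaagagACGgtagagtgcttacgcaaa

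The Camk2b run differed from that of Camk2d at 6 of the 39 bases and the Camk2g run at 10. Reads had 50 bases. Over all annotated transcripts, the longest identical run shared with Camk2d was 34 bases for Camk2a, 23 for Camk2b and 23 for Camk2g, each shorter than a read. No 50-base word of a member occurred in another member, and 0% of the words of Camk2d, Camk2g, Camk2n1, Camkk1 and Camkk2 occurred in any other gene. The share found elsewhere was 0.29% for Camk2a, 0.16% for Camk2b, 0.71% for Camk4 and 2.22% for Camk1. The kit does not mark the strand, so reads from the 3.88% of Camk1 exon bases under Ogg1 and the 2.21% of Camk4 exon bases under an antisense gene cannot be assigned.

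The shallowest library held 11.0 M counts and the deepest 34.1 M (M, mega), and every member had at least 350 counts in every library. Markers of excitatory neurons, CA1, CA2, CA3 and dentate gyrus were present in all 20 libraries, with none at 0. One library stood apart: mitochondrial ribosomal RNA took 26.8% of 5mSC replicate 3, against 0.883 to 1.82% of each other library. This library had the lowest level of Camk2a, Camk2b, Camk2g, Camk2n1, Camk4, Camkk1 and Camkk2 of all 20. Its summed markers were low for excitatory neurons (1450 CPM, others 2600 to 3490), interneurons (431, others 650 to 927) and microglia (159, others 263 to 352), and high for choroid plexus (379, others 34.1 to 143). Oligodendrocyte (2860, others 3850 to 7260), astrocyte (3500, others 4150 to 6790), CA1, CA2 and vascular markers also lay below every other library. Those of CA3, dentate gyrus, neocortex, striatum, and thalamus and habenula lay within the range of the others. In the same group, 5mSC replicate 1 had the second lowest Camk2a and Camk4. Its mitochondrial ribosomal RNA (1.44%) was within the range of the others, and its excitatory neuron markers were the highest (3490 CPM). Values without 5mSC replicates 1 and 3 are given where they change a direction. Leaving out libraries with low Camk2a and Camk4 raises the 5mSC mean of these genes by construction. A turn of their direction in such a fit is therefore no evidence of a difference. In bulk tissue, fewer cells of a type and less RNA per cell cannot be told apart.

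Levels between genes were compared per length, as CPM (counts for each M counts of the TMM-scaled library) per kb of summed exons. Camk2a (ENSMUSG00000024617, chromosome 18, 60925618 to 60988152), the alpha subunit, was the highest, at 634.8 ± 94.7 CPM per kb (SD, n = 20). Camk2b (ENSMUSG00000057897, chromosome 11, 5969644 to 6066362), the beta subunit that binds actin, had 141.8 ± 22.9 CPM per kb. Camk2g (ENSMUSG00000021820, chromosome 14, 20734875 to 20794088), the gamma subunit, had 33.79 ± 4.93 CPM per kb. The delta subunit gene Camk2d (ENSMUSG00000053819, chromosome 3, 126596302 to 126846326) was the lowest of all 9, at 2.64 ± 1.17 CPM per kb.

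Among the others, Camk2n1 (ENSMUSG00000046447, chromosome 4, 138454314 to 138460123), which encodes a small protein inhibitor of CaMKII, had 182.4 ± 26.2 CPM per kb. Camkk1 (ENSMUSG00000020785, chromosome 11, 73019008 to 73042073) and Camk4 (ENSMUSG00000038128, chromosome 18, 32934931 to 33191228) followed, at 66.54 ± 8.39 and 47.35 ± 6.67 CPM per kb. Camkk2 (ENSMUSG00000029471, chromosome 5, 122731170 to 122779409) had 15.87 ± 1.67 CPM per kb and Camk1 (ENSMUSG00000030272, chromosome 6, 113334124 to 113343984) had 6.53 ± 0.991. Neighbours in this order were separated by more than the sum of their SDs, except Camk2n1 with Camk2b, whose intervals of 1 SD overlapped.

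The distance of Camk2d from its paralogs depends on the length used. Its 28 annotated transcripts cover 22493 exon bases, whereas its longest transcript has 5524. Camk2d averaged 0.416% of the Camk2a level per kb of summed exons and 1.13% per kb of longest transcript, where it had 10.76 ± 4.76 CPM per kb and Camk1 had 16.28 ± 2.47 (SD, n = 20). By the longest transcript, Camk2b (313.7 ± 50.7) stood above Camk2n1 (182.4 ± 26.2), and Camk2g (58.41 ± 8.53) and Camk4 (56.79 ± 8.0) did not differ beyond their spread. Camk2a was first and Camk2d last by both lengths.

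**Figure D1:**
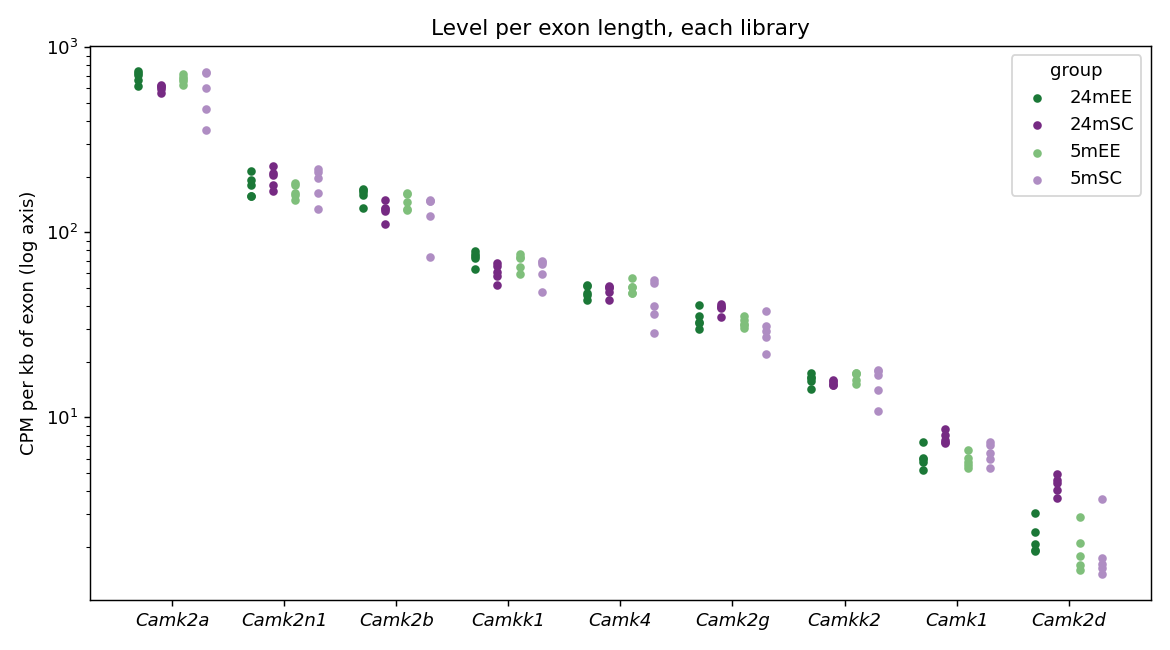
CPM per kb of summed exon on a log axis for the 9 genes, ordered by their mean, with a point for each library and the groups side by side (24mEE, 24mSC, 5mEE, 5mSC). Camk2a lies highest and Camk2d lowest, and in Camk2d the 24mSC points lie above those of every other group.

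Within CaMKII the alpha subunit dominated in every group. Of the summed CPM per kb of the 4 subunit genes, Camk2a made up 77.8 ± 1.25% in 24mEE, 77.5 ± 1.59% in 24mSC, 78.7 ± 1.42% in 5mEE and 78.0 ± 3.65% in 5mSC (SD, n = 5 each). Camk2b took 18.1 ± 1.13% in 24mEE, 17 ± 1.61% in 24mSC, 17.2 ± 1.39% in 5mEE and 17.6 ± 3.18% in 5mSC. Both shares differed between groups by less than or about their SD. Camk2g took 3.9 ± 0.73% in 24mEE, 5.01 ± 0.328% in 24mSC, 3.82 ± 0.273% in 5mEE and 4.16 ± 0.963% in 5mSC, with the highest mean in 24mSC. Camk2d was a trace component, with 0.26 ± 0.0737% in 24mEE, 0.558 ± 0.0572% in 24mSC, 0.233 ± 0.0763% in 5mEE and 0.286 ± 0.137% in 5mSC. These shares are per kb of summed exons. By the longest transcript, Camk2d had 0.643 ± 0.182% in 24mEE, 1.38 ± 0.146% in 24mSC, 0.58 ± 0.191% in 5mEE and 0.708 ± 0.34% in 5mSC.

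Camk2d was the member whose level followed the groups most visibly. In 24mEE its 5 libraries had 42.7, 68.2, 46.5, 43.5 and 54.4 CPM. In 24mSC they had 91.6, 99.1, 111.5, 83.04 and 102.9 CPM. All 5 libraries of 24mEE lay below all 5 of 24mSC. In 5mEE the values were 33.8, 65.0, 39.9, 47.1 and 36.1 CPM, and in 5mSC they were 34.6, 81.5, 39.1, 31.9 and 36.2 CPM. Replicate 2 was the highest library in 24mEE, 5mEE and 5mSC. Replicate numbers here follow the order of deposition and join no animals across groups.

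Camk2d averaged 51.05 ± 10.66 CPM in 24mEE, 97.62 ± 10.85 in 24mSC, 44.39 ± 12.56 in 5mEE and 44.66 ± 20.75 in 5mSC (SD, n = 5 each). The 24mSC range did not meet that of any other group, with its lowest library at 83.04 CPM and the highest of the others, 5mSC replicate 2, at 81.48 CPM. The ranges of 24mEE, 5mEE and 5mSC overlapped one another, so that no order among these 3 groups is given. The coefficient of variation was 20.9% in 24mEE, 11.1% in 24mSC, 28.3% in 5mEE and 46.5% in 5mSC.

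**Figure D2:**
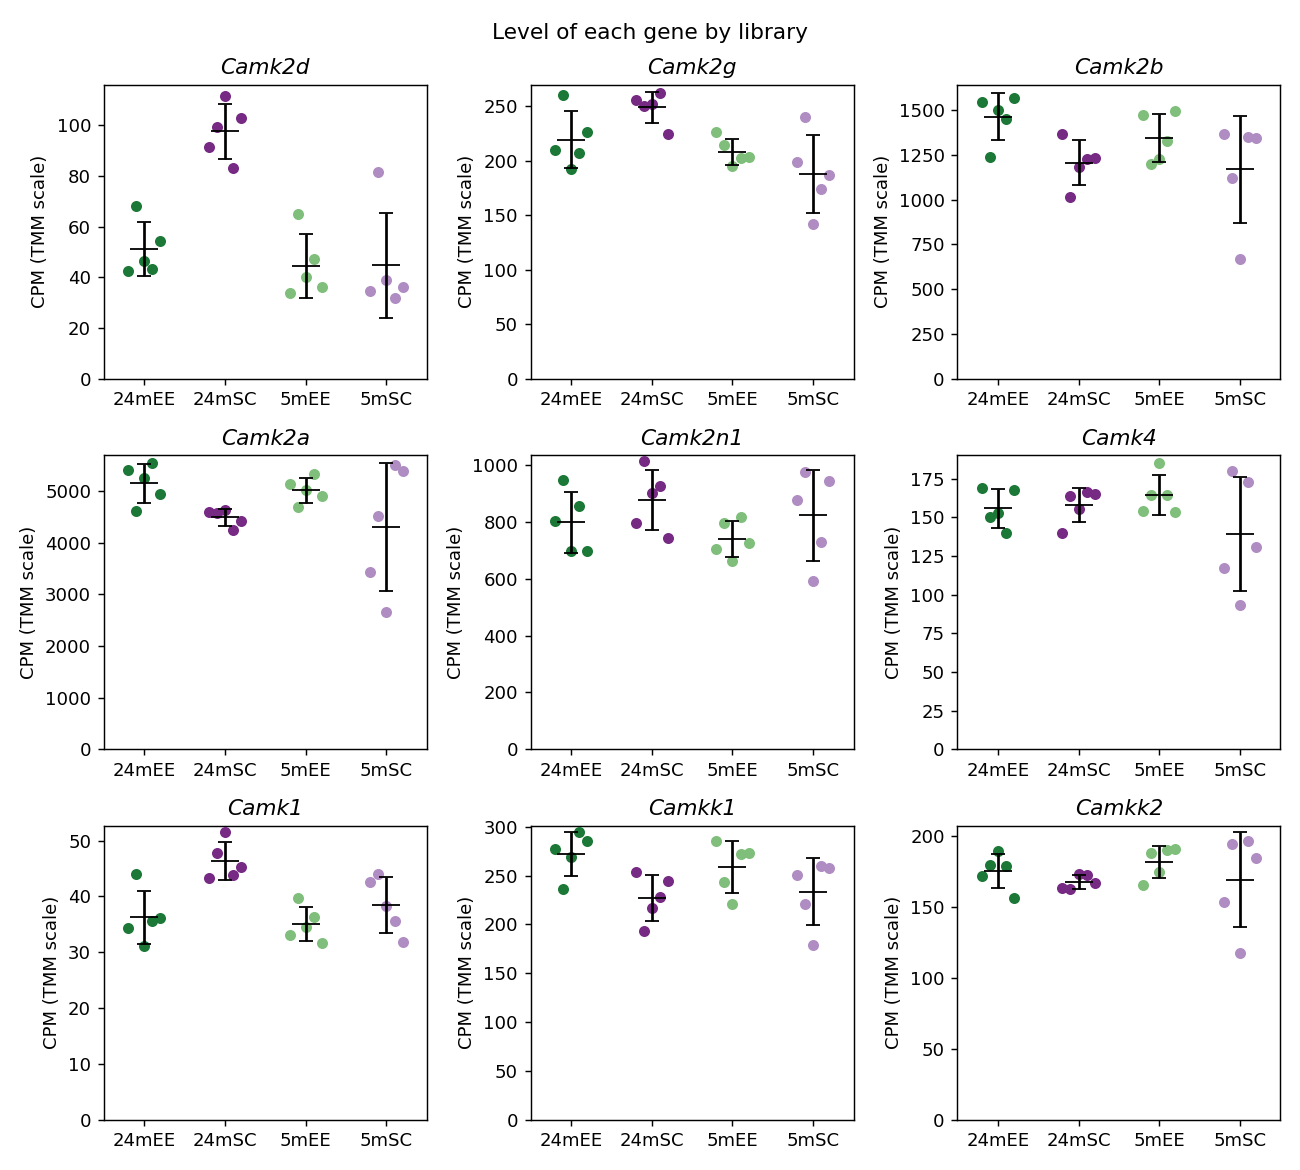
CPM by library for each gene, with the groups from left to right 24mEE, 24mSC, 5mEE and 5mSC; points are libraries in replicate order, horizontal bars the mean and error bars the SD (n = 5). The 24mSC points of Camk2d lie from 83.04 to 111.5 CPM, above every other library, and no paralog shows such a separation.

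The contrast of 24mEE with 24mSC is the one that chose the set, and it asks how late enrichment relates to the old hippocampus. Camk2d had a log2 fold change of -0.94 ± 0.22 (SE of the edgeR fit), a level 0.523-fold that of 24mSC. It was the 1 member of 9 whose ranges in the 2 groups did not overlap, beside 3.43% of the 16692 genes tested, a count from which nothing is read here since the set was chosen on it. None of the paralogs had a difference of that size. Camk2a, with 4607 to 5544 CPM in 24mEE and 4243 to 4641 CPM in 24mSC, had 0.20 ± 0.148. Camk2b, with 1240 to 1569 CPM in 24mEE and 1016 to 1365 CPM in 24mSC, had 0.28 ± 0.148. The ranges of both overlapped between the groups. Both values lay above zero, but near it with tissue markers as a covariate, at 0.06 for Camk2a and 0.07 for Camk2b with neocortex markers, and at -0.05 and -0.03 with striatum markers.

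Camk2g had 210.3, 260.7, 192.4, 207.1 and 226.5 CPM in 24mEE and 255.6, 250.4, 252.6, 262.5 and 224.3 CPM in 24mSC. Its log2 fold change was -0.18 ± 0.107, in the direction of Camk2d but with 1 library of 24mEE above the 24mSC mean. Camk1, the cytoplasmic CaMKI, had 34.3, 44.0, 31.0, 35.7 and 36.2 CPM in 24mEE and 43.4, 47.8, 51.6, 43.8 and 45.3 CPM in 24mSC. All 5 of its 24mEE libraries lay below the 24mSC mean, with a log2 fold change of -0.36 ± 0.0967, and the ranges overlapped through 24mEE replicate 2. Camkk1, an upstream kinase, had 277.4, 236.1, 269.3, 294.9 and 285.2 CPM in 24mEE and 253.5, 193.6, 216.6, 227.6 and 244.8 CPM in 24mSC. Its difference of 0.26 ± 0.105 pointed the other way. Camk2n1 (-0.13 ± 0.128), Camk4 (-0.02 ± 0.128) and Camkk2 (0.06 ± 0.104) lay within about 1 SE of zero. The 8 members other than Camk2d split into 4 positive and 4 negative values, with a median of 0.02 beside -0.002 over all genes tested.

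Most markers of brain regions next to the hippocampus were lower in 24mEE than in 24mSC, as Camk2d was. Of 7 neocortex markers, all measured and none at 0, 7 were lower in 24mEE, with a median log2 fold change of -0.28. Their summed level ranged over 114 to 170 CPM in 24mEE, 149 to 191 in 24mSC, 118 to 167 in 5mEE and 127 to 188 in 5mSC, and replicate 2 was again the highest of 24mEE (170), 5mEE (167) and 5mSC (188). Striatum markers (7 measured, with Isl1 at 0 in some libraries) summed to 19.0 to 33.0 CPM in 24mEE, 33.3 to 41.2 in 24mSC, 21 to 32.8 in 5mEE and 16.7 to 38.3 in 5mSC. The striatum ranges of 24mEE and 24mSC therefore did not overlap either. Thalamus and habenula markers had 121 to 147 CPM in 24mEE and 138 to 172 in 24mSC, and dentate gyrus markers had 449 to 570 CPM in 24mEE and 249 to 493 in 24mSC. In 24mSC against 5mSC, where Camk2d was higher, the median log2 fold change was 0.23 for the striatum markers. It was -0.04 for the neocortex markers and -0.10 for the thalamus and habenula markers. The neocortex list depended on the measure, since its mean summed level was 174 CPM in 24mSC and 146 CPM in 5mSC. Its mean log2 CPM, the value used as covariate, was 3.685 in 24mSC and 3.483 in 5mSC. Thalamus and habenula markers had mean sums of 151 CPM in 24mSC and 149 CPM in 5mSC.

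With the neocortex markers as a covariate, the Camk2d difference between 24mEE and 24mSC was -0.54 ± 0.183, and with the striatum markers, a covariate added after the values were seen, it was -0.31 ± 0.168. With the dentate gyrus markers it was -0.79 on the log2 scale. Other members moved too: Camk1 had -0.21 ± 0.0932 with the neocortex and -0.16 ± 0.104 with the striatum covariate, and Camkk1 had 0.11 ± 0.108 with the neocortex and 0.09 ± 0.125 with the striatum covariate. Camk2g had -0.04 ± 0.112 with the neocortex covariate. The amount of neighbouring tissue in a dissected sample and the level of these genes within hippocampal cells cannot be told apart in these libraries.

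**Figure D3:**
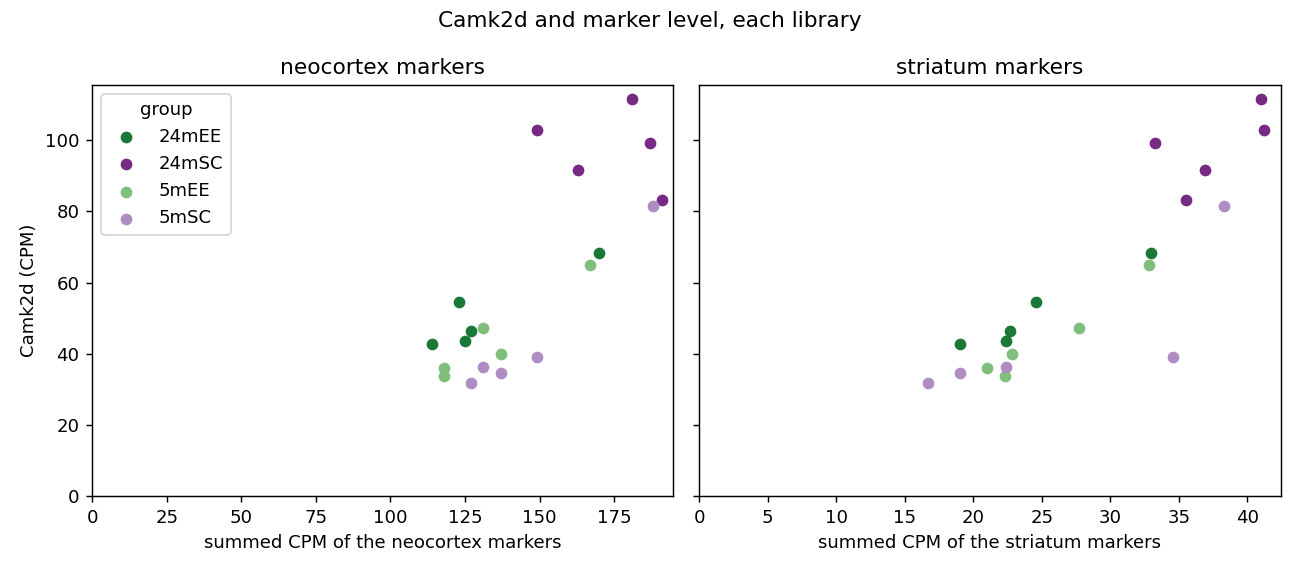
Camk2d in CPM (vertical) against the summed CPM of the 7 neocortex markers (left) and the 7 striatum markers (right), a point for each of the 20 libraries, coloured by group. The 24mSC libraries lie at the upper right, 5mSC replicate 2 (81.48 CPM of Camk2d, 188 CPM of neocortex markers) lies near them, and most others lie at the lower left.

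For age in standard cages, 24mSC against 5mSC, Camk2d shares the 24mSC libraries with the contrast it was chosen on, so its value is a description. It had a log2 fold change of 1.13 ± 0.222, or 2.2-fold, and was the 1 member of 9 with ranges that did not overlap, beside 3.24% of all genes tested. The value was 1.02 to 1.46 when each library was left out in turn, lowest without 5mSC replicate 4 and highest without 5mSC replicate 2. Without 5mSC replicates 1 and 3 it was 0.99 ± 0.253. With the planned covariates it was 1.0 ± 0.162 (neocortex markers) and 1.10 ± 0.22 (dentate gyrus markers). With the striatum covariate, added after the values were seen, it was 0.65 ± 0.158. Of the 8 other members, 0 passed edgeR's quasi-likelihood test at an adjusted p of 0.05, beside 0.803% of all genes tested (78 higher and 56 lower), while 2 of 8 had an unadjusted p under that value, beside 20.5% of all genes. DESeq2 called 1 of the 8, and 711 genes in all.

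The 1 gene called by DESeq2 was Camk2g. It had 255.6, 250.4, 252.6, 262.5 and 224.3 CPM in 24mSC and 198.6, 239.9, 141.7, 174.5 and 186.6 CPM in 5mSC, so that every 24mSC library lay above the 5mSC mean and the ranges overlapped through 5mSC replicate 2. Its log2 fold change was 0.40 ± 0.107 (edgeR, adjusted p = 0.0634), and it passed by DESeq2 (adjusted p = 0.0178) and by edgeR without 5mSC replicate 2 (0.50, adjusted p = 0.0102). Camk1 had 43.4, 47.8, 51.6, 43.8 and 45.3 CPM in 24mSC and 42.5, 44.1, 38.4, 35.7 and 31.8 CPM in 5mSC. Its difference of 0.27 ± 0.0969 did not pass in edgeR (adjusted p = 0.131).

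For the main forebrain subunits no difference with age was detected. Camk2a averaged 4494 ± 164.6 CPM in 24mSC and a more variable 4301 ± 1236 CPM in 5mSC (SD, n = 5 each; log2 fold change 0.06, edgeR adjusted p = 0.844), and Camk2b 1204 ± 125.7 CPM in 24mSC and 1169 ± 297.7 CPM in 5mSC (0.04, edgeR adjusted p = 0.901). The wide 5mSC spread of Camk2a came from 5mSC replicates 3 and 1, at 2660 and 3440 CPM, with the other 3 libraries at 4510 to 5507 CPM. Without those 2 libraries the Camk2a difference was -0.20 and that of Camk2b -0.08. Without 5mSC replicate 3 alone they were -0.075 and -0.112, so their direction is not settled. Camk4 (0.18), Camk2n1 (0.09), Camkk1 (-0.04) and Camkk2 (-0.01) had adjusted p between 0.434 and 0.957 by edgeR. The median of the 8 members was 0.08, beside -0.011 over all genes.

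The comparison of 5mEE with 5mSC involves no library that chose a member, so all 9 were tested. By edgeR 0 of 9 passed, and 0 had an unadjusted p under 0.05. Over all genes edgeR called 0% at an adjusted p of 0.05, with 2759 genes at an unadjusted p under 0.05, and DESeq2 called 11 genes and 0 members. The ranges of 0 of 9 members were apart, beside 1.62% of all genes. Camk2d had a log2 fold change of -0.01 ± 0.221 (edgeR, adjusted p = 0.993), with a 95% interval of the fit from -0.47 to 0.46, and 2 of 5 libraries of 5mEE lay above the 5mSC mean.

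That mean was pulled up by 5mSC replicate 2, and without it the Camk2d difference was 0.32. Differences in the young mice smaller than about the interval's bounds were not detectable with these libraries. Camk4 (0.24 ± 0.129, edgeR adjusted p = 0.35) and Camk2a (0.22 ± 0.148, edgeR adjusted p = 0.45) had the highest values, with 5 of 5 libraries of 5mEE above the 5mSC mean in both. For Camk2a the value was -0.04 without 5mSC replicates 1 and 3, and 0.084 without replicate 3 alone. Camk2n1 (-0.15) and Camk1 (-0.13) lay on the other side of zero. The median of the 8 members other than Camk2d was 0.15, beside -0.021 over all genes.

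Between the enriched groups, 24mEE against 5mEE, Camk2d had a log2 fold change of 0.20 ± 0.22, again a description because the 24mEE libraries served to choose it. Of the 8 others, 0 passed edgeR's test, beside 0.108% of all genes (14 higher and 4 lower). None of the 8 had an unadjusted p under 0.05, beside 769 of all genes, and DESeq2 called 0 of the 8 and 36 genes in all. The ranges of 0 of 9 members were apart, beside 2.76% of all genes. The log2 fold changes of the 8 lay from -0.08 for Camk4 to 0.12 for Camk2b, each with an edgeR adjusted p of 1.0.

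**Figure D4:**
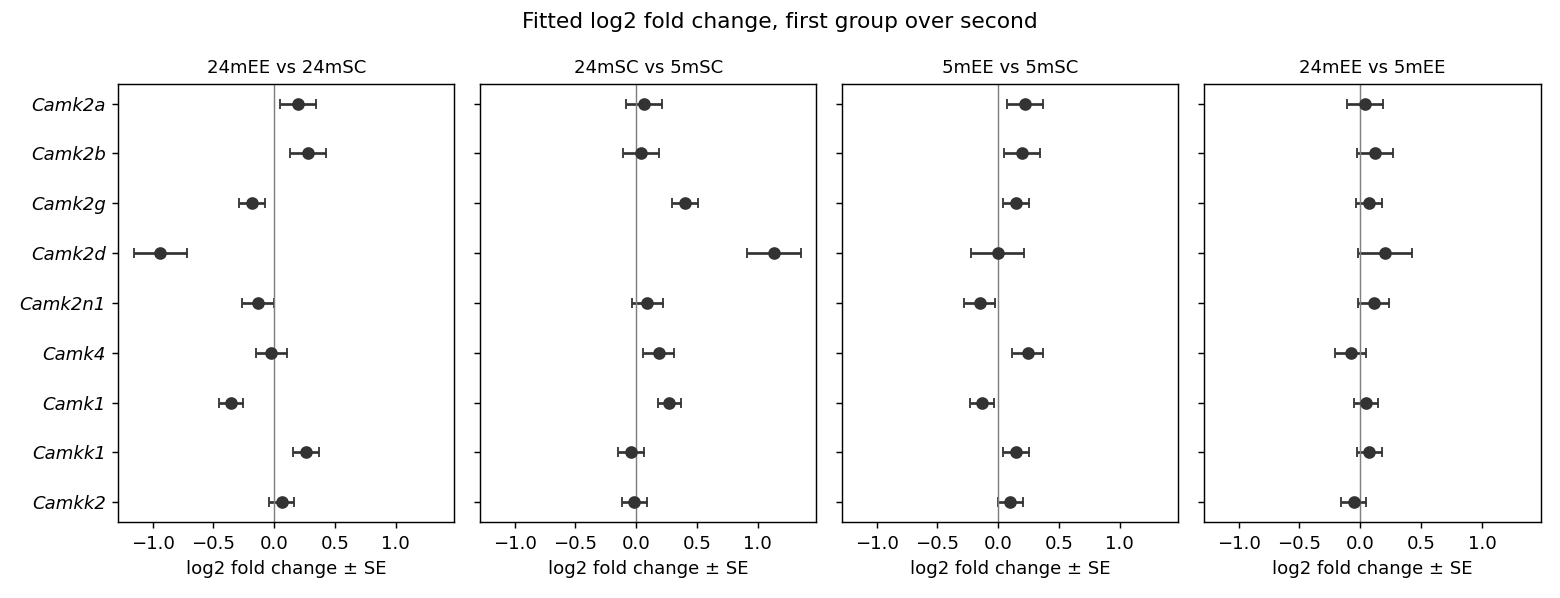
Fitted log2 fold change (horizontal, first group over second) with its SE for the 9 genes in the 4 comparisons. Camk2d lies at -0.94 in 24mEE vs 24mSC and at 1.13 in 24mSC vs 5mSC, comparisons that share the 24mSC libraries, and at -0.01 in 5mEE vs 5mSC and 0.20 in 24mEE vs 5mEE, while its paralogs stay between -0.18 and 0.40.

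A ratio within each library needs no scaling between libraries. Camk2d reads were set against the summed reads of Camk2a, Camk2b and Camk2g. In 24mEE there were 0.596, 1.12, 0.67, 0.603 and 0.809 Camk2d reads for each 100 reads of the other subunits, and in 24mSC there were 1.47, 1.7, 1.83, 1.45 and 1.75. The lowest 24mSC library was thus above the highest of 24mEE. In 5mEE the ratio was 0.496, 1.06, 0.62, 0.687 and 0.547, and in 5mSC it was 0.691, 1.39, 1.13, 0.454 and 0.524.

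The mean log2 ratio differed by -1.15 in 24mEE minus 24mSC, by 1.1 in 24mSC minus 5mSC and by 0.16 in 24mEE minus 5mEE, all descriptions. For 5mEE minus 5mSC, the comparison that can be tested, it differed by -0.21 (two-sided exact permutation test, p = 0.587, adjusted p = 0.667 over 4 ratios, where 0.00794 is the smallest p the design allows). The difference was 0.004 without 5mSC replicate 2. Against Camk2g alone, the paralog nearest to it in level, Camk2d reads were 23.1 ± 2.44% in 24mEE, 39.4 ± 5.86% in 24mSC, 21.3 ± 5.9% in 5mEE and 23.3 ± 7.2% in 5mSC (SD, n = 5 each).

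**Figure D5:**
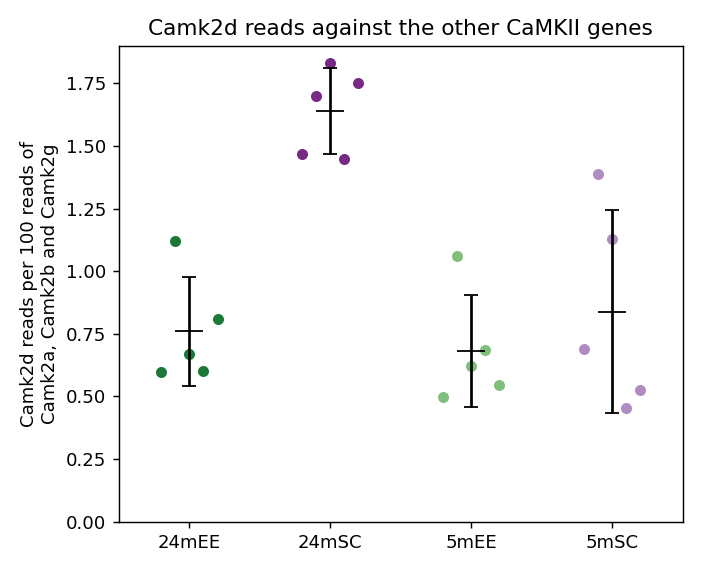
Camk2d reads per 100 reads of Camk2a, Camk2b and Camk2g together, by library and group; bars are the mean and SD (n = 5). The 24mSC libraries lie from 1.45 to 1.83 and all 24mEE libraries at or under 1.12.

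Across the 20 libraries the members did not move as a unit with Camk2d. Pearson's r of log2 CPM with Camk2d was 0.833 for Camk1, 0.735 for Camk2g and 0.48 for Camk2n1, but -0.098 for Camk2a, -0.235 for Camk2b and -0.413 for Camkk1. These are descriptions over libraries that share groups and tissue makeup. Outside the family, 8 genes of 13118 candidates followed Camk2d most closely: Plxnd1 (r = 0.952), a semaphorin receptor, Vill (0.942), Trim66 (0.937), Plxdc1 (0.931), Cobl (0.93), an actin nucleator, Fhod3 (0.922), a formin, Hrh1 (0.917), a histamine receptor, and Dpp10 (0.912), a potassium channel auxiliary subunit. Without 5mSC replicates 1 and 3, 5 of these 8 were again among the first 8, without the 2 libraries farthest from the Camk2d median 6 were, and by Spearman's rank 3 were.

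Plxnd1 had 40.1 ± 8.77 CPM in 24mEE, 66.7 ± 6.23 in 24mSC, 36.4 ± 6.33 in 5mEE and 37.4 ± 11.5 in 5mSC (SD, n = 5 each). Dpp10 had 47.7 ± 13.6 CPM in 24mEE, 81.3 ± 6.88 in 24mSC, 50.5 ± 11.6 in 5mEE and 47.7 ± 19.9 in 5mSC. Both had the highest mean in 24mSC, as Camk2d did. The rule that named these genes used the same libraries, so their group levels are no further evidence.

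The wider pathway was read from 5 lists with 54 genes, all of which passed the filter. In 24mSC against 5mSC, 0 genes were higher and 1 of 54 was lower by edgeR, beside 0.803% of all genes called, so the count is near the background. In 5mEE against 5mSC and in 24mEE against 5mEE, 0 passed in either direction. The 1 gene that passed was Crem, a CREB-family factor that includes repressor forms, at 16.96 ± 1.42 CPM in 24mSC, against 23.72 ± 1.85 CPM in 5mSC (SD, n = 5 each; log2 fold change -0.48 ± 0.0823, edgeR adjusted p = 0.00864). Without 5mSC replicates 1 and 3 its value was -0.49 ± 0.0837 (edgeR adjusted p = 0.0066).

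The 15 binding partners and substrates of CaMKII, among them the NMDA receptor subunit Grin2b, had a median log2 fold change of 0.14 in 24mEE against 24mSC (13 positive), 0.04 in 24mSC against 5mSC (9 positive) and 0.23 in 5mEE against 5mSC (14 positive), beside medians of all genes of -0.002, -0.011 and -0.021. None of these 15 passed edgeR's test in the comparisons tested. Without 5mSC replicates 1 and 3 the list's median was 0.11 in 5mEE against 5mSC (13 positive) and -0.07 in 24mSC against 5mSC (5 positive), so the age value changed sign. Grin2b had the highest of the 5mEE values, with 669.8 ± 68.8 CPM in 5mEE and 476.4 ± 147.0 CPM in 5mSC (0.49 ± 0.169, edgeR adjusted p = 0.225). Grin2b lies outside the naming rule and was picked after its value was seen. The 7 genes of calmodulin and its buffers, such as Nrgn and Pcp4, had medians of 0.06 in 24mEE against 24mSC, -0.05 in 24mSC against 5mSC and -0.01 in 5mEE against 5mSC. The 10 genes of calcineurin and phosphatase 1 include regulators of these phosphatases (Rcan1, Rcan2 and Ppp1r1a). The list's medians were 0.11 in 24mEE against 24mSC, -0.07 in 24mSC against 5mSC and 0.04 in 5mEE against 5mSC. By edgeR 0 of these 10 passed in the comparisons tested. The 10 other CaM kinases and regulators had medians of -0.005 in 24mEE against 24mSC and 0.10 in both 24mSC against 5mSC and 5mEE against 5mSC. The 12 targets of CaMKK and CaMKIV had medians of 0.05 in 24mEE against 24mSC, 0.10 in 24mSC against 5mSC and 0.08 in 5mEE against 5mSC. Without 5mSC replicates 1 and 3, the medians of these 2 lists in 24mSC against 5mSC were -0.06 and -0.01, and in 5mEE against 5mSC the median of the targets was -0.03 and that of the calmodulin list -0.05.

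Within these lists, a minority of genes had their highest group mean in 24mSC, like Camk2d, and most did not. Gap43, Pnck and Hdac5 were among that minority. Camk2n2 and Mef2c also belonged to it, and were picked after their values were seen. No share over all genes stands beside this pattern, so no excess of it is read from the lists. Camk2n2, which encodes the other CaMKII inhibitor protein, had 38.36 ± 6.83 CPM in 24mEE, 62.15 ± 5.25 in 24mSC, 40.54 ± 9.12 in 5mEE and 45.37 ± 13.0 in 5mSC (SD, n = 5 each). Its log2 fold change was -0.70 ± 0.175 in 24mEE against 24mSC, a description, and 0.45 ± 0.175 in 24mSC against 5mSC (edgeR adjusted p = 0.161). Mef2c, a transcription factor of neurons, had 138.3 ± 40.5 CPM in 24mEE, 193.2 ± 16.7 in 24mSC, 135.0 ± 19.1 in 5mEE and 117.9 ± 54.7 in 5mSC. Its log2 fold change was -0.48 ± 0.218 in 24mEE against 24mSC, a description, and 0.71 ± 0.219 in 24mSC against 5mSC (edgeR adjusted p = 0.0921).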

How the data were processed

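Hippocampal RNA of individual mice was made into libraries with a TruSeq RNA v2 kit. The authors deposited read counts for each Ensembl gene, unnormalised. The labels name featureCounts 1.4.6-p4, the aligner STAR 2.4.1d, bcl2fastq 1.8.2 and the GRCm38 build. The paper's own results came from another alignment and accounted for the sequencing run, which the labels do not give. Deposited RPKM values were not used. Members and lists were chosen with earlier results of these data known.

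In R 4.3.3 with edgeR 4.0.16, genes were filtered with filterByExpr (least count 10, least total 15), scaled by TMM and fitted in a quasi-likelihood model with group as its term over 20 libraries. The p-values were adjusted by Benjamini-Hochberg over 16692 genes, threshold 0.05, and SEs follow from the F statistic. Gene models came from GENCODE, which matched 99.1% of identifiers. The named genes were the 9 members, passing genes of the lists and the 8 genes most like Camk2d. The script was tested on simulated data. Alternatives were DESeq2 1.42.0, its size factors, other filters, tissue-marker covariates, fits without 5mSC replicates 1 and 3, and leaving out each library. In a library, 3 counts correspond to 0.0882 to 0.329 CPM, a floor that covers counting error only.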

Additional observations from a re-analysis of the deposited data

Results flagged for a closer look

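Camk2d in 5mSC replicate 2 was far from the other libraries of its group. It had 81.48 CPM, with the next library at 39.11 CPM, a gap of 0.854 of the group's whole range. Among 36 groups of 5 libraries examined (9 genes in 4 groups) it was the 1 that stood out in this way, and chance alone would do so for about 1 in 20. The same library had the highest neocortex marker sum of 5mSC (188 CPM) and the highest Camk2g of that group (239.9 CPM). Whether tissue makeup has a part in it was not tested.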

How the results depend on the processing

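With at least 350 counts of every member in a library, the spread between the 5 libraries of a group rather than depth limits these values. What makes up that spread was not tested. The Camk2d log2 fold change of 24mEE over 24mSC was -0.54 with the neocortex and -0.31 with the striatum covariate, and -1.06 to -0.87 when each library was left out in turn. The count of members called in 24mSC vs 5mSC was 1 (Camk2g) by DESeq2, and 0 to 1 with a library left out. The 1 was again Camk2g, without 5mSC replicate 2, its highest library of 5mSC. The Camk2d level relative to Camk2a was 1.13% by the longest transcript. The ratio difference of 5mEE minus 5mSC was -0.40 to 0.004 with a library left out.

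Directions turned for small differences, none of them called. In 24mEE vs 24mSC, with the striatum covariate, Camk2a was -0.052 and Camk2b -0.034. Without 5mSC replicates 1 and 3, 24mSC vs 5mSC gave -0.196 for Camk2a, -0.081 for Camk2b, -0.013 for Camk2n1 and -0.031 for Camk4, and 5mEE vs 5mSC gave -0.037 for Camk2a and -0.079 for Camkk2. Without 5mSC replicate 3 alone, Camk4 in 24mSC vs 5mSC (0.067) and Camk2a in 5mEE vs 5mSC (0.084) did not turn, while the others did. In 24mSC vs 5mSC, Camkk1 was 0.038 with the neocortex and 0.11 with the striatum covariate, and Camkk2 was 0.036 with the striatum covariate. Camk2d in 5mEE vs 5mSC was 0.001 by DESeq2, 0.023 without a filter, 0.214 with the neocortex, 0.103 with the dentate gyrus and 0.031 with the striatum covariate. With each library left out, values in 24mSC vs 5mSC ran from -0.075 to 0.156 for Camk2a, -0.112 to 0.096 for Camk2b, -0.014 to 0.156 for Camk2n1, -0.132 to 0.009 for Camkk1 and -0.125 to 0.037 for Camkk2. In 5mEE vs 5mSC they ran from -0.19 to 0.32 for Camk2d and -0.009 to 0.152 for Camkk2, and in 24mEE vs 5mEE from -0.026 to 0.101 for Camk1. The cause of these turns was not tested. No paired analysis was possible because replicate numbers follow the order of deposition only.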
